A study of Mus musculus with 18 samples.

Results

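The TFEB family of transcription factors and the lysosomal GTPases that sense nutrients were followed through 10 genes, taken by symbol from the 27179 genes counted, with no threshold on a measured value but with earlier results of these data known. They were the factor genes Tfeb, Tfe3, Mitf and Tfec, the folliculin gene Flcn with the genes of its partners Fnip1 and Fnip2, and the Rag GTPase genes Rraga, Rragc and Rragd. All 10 were found and all 10 passed the filter of a mean of at least 10 normalized counts, as did 14353 of all genes. The libraries came from primary mesenchymal stem cells (MSCs) of the bone marrow of C57BL6 mice, in 3 groups of 6 libraries called young, old and rejuvenated old MSCs. Young MSCs came from mice aged 6 weeks and old MSCs from mice aged 18 to 24 months, and cells of passage 2 to 5 were used. Young and old MSCs were untreated and were cultured for 7 days, and rejuvenated old MSCs were old MSCs kept for the same 7 days beside young MSCs across a Transwell membrane with 0.4 µm pores. All groups were grown in the same serum-supplemented medium, 100000 old MSCs were plated per well, and an RNA library of old MSCs kept beside other old MSCs was not analysed here, so the presence of any second culture and that of young cells cannot be told apart. The labels call the libraries of a group biological replicates but do not say how many mice they came from, so p-values measure the spread between these cultures.

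As background, TFEB, TFE3, MITF and TFEC are related helix-loop-helix factors. They bind the sequence TCACGTG, the core of the CLEAR element, in front of many genes of lysosomes and autophagy. On the lysosome, a RagA or RagB protein paired with RagC or RagD brings the kinase complex mTORC1 to the membrane when amino acids are plentiful, and the folliculin complex acts on RagC and RagD, which also present TFEB and TFE3 to mTORC1 for phosphorylation. Phosphorylated TFEB and TFE3 are held in the cytoplasm, so the mRNA levels described here do not show how active the factors were.

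In rejuvenated old against old MSCs, 6 of the 10 transcripts were lower (Tfe3, Flcn, Fnip1, Fnip2, Rragc and Rragd), none was higher, and Tfeb, Mitf, Tfec and Rraga did not pass the threshold (limma with Benjamini-Hochberg adjustment over all genes tested, adjusted p below 0.05). None of the 10 was higher at an unadjusted p below 0.05 by limma either, and none was called higher by edgeR or DESeq2. Over all genes tested, 41.6% passed in this comparison, 20.6% lower and 21% higher. The median log2 fold change of the 10 genes was -0.17, against 0.0081 over all genes tested. All 3 folliculin complex genes and the RagC and RagD genes were thus among the transcripts lower after co-culture, with falls between 7.68% for Rragc and 36.3% for Rragd in the group means. Between young and old MSCs, 9 of the 10 differed, which is close to the 85.7% of all genes tested that were called there. Mitf, Fnip2 and Rragd showed the largest excess in young MSCs, and Tfec was listed at 0 in every young library.

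**Figure D1:**
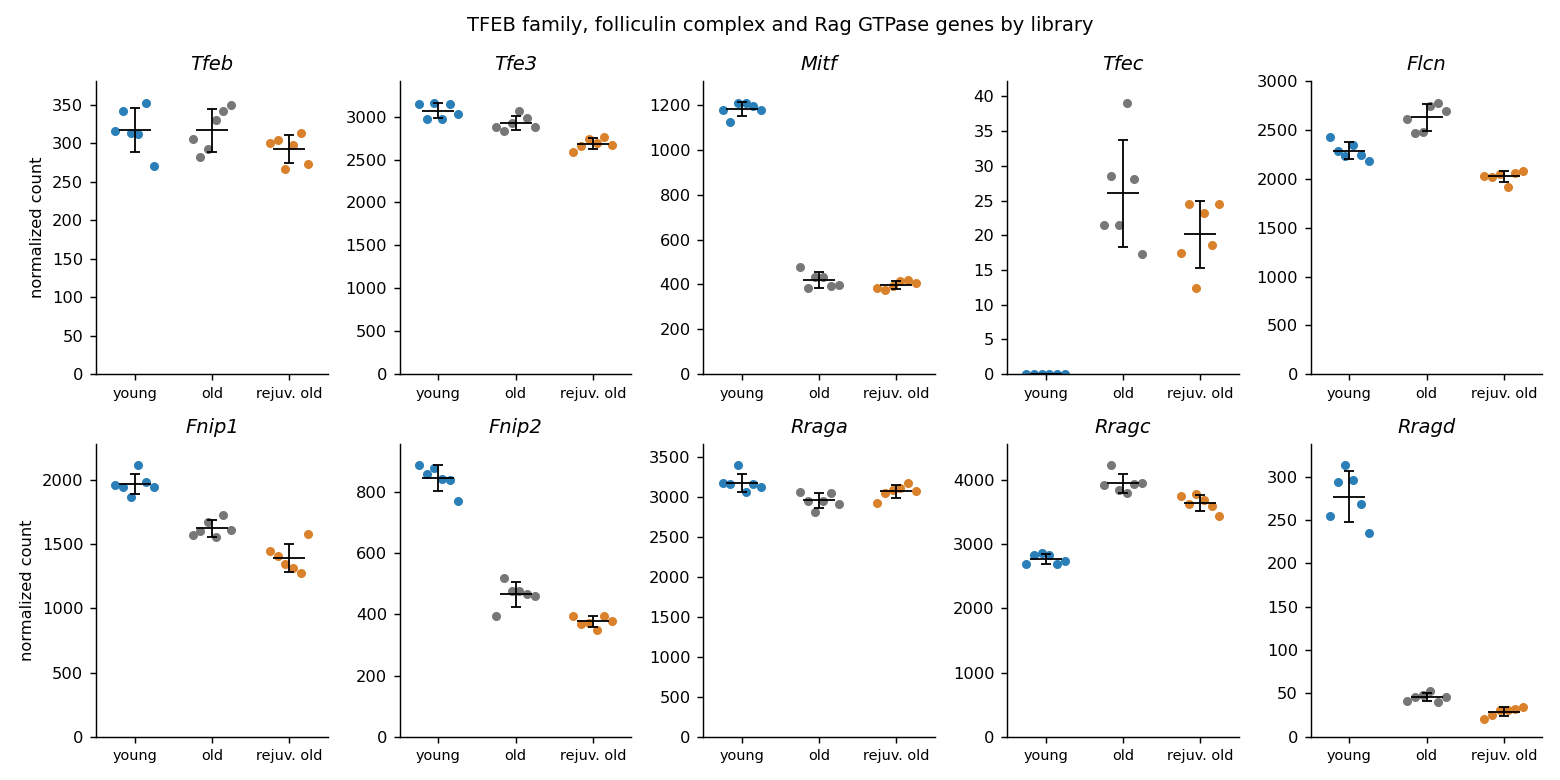
Normalized counts of the 10 genes in each of the 18 libraries, with the mean (wide tick) and SD (bars) of 6 libraries per group on axes that start at 0. Flcn, Tfe3, Rragc and Rragd had no overlap between old and rejuvenated old MSCs, and in young against old MSCs the 8 genes other than Tfeb and Tfe3 had none. The share of all genes without overlap was not computed, so neither count is a result about these genes. In young against old MSCs 85.7% of all genes tested were called, and in rejuvenated old against old MSCs 41.6%.

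The libraries held 22936251 to 29559194 reads assigned to genes, so the 10 genes rested on anything from 0 reads (Tfec in young MSCs) to 4291 reads (Rragc in an old library). Replicate 1 of rejuvenated old MSCs stood apart: 87 genes with a mean of at least 50 in young MSCs and at most 3 reads in each old library summed to 2.08% of their young mean in it, against 0.190% to 0.243% in the other 5 and 0.129% to 0.159% in old MSCs. The choice of these genes holds the old sums low, so the gap between old MSCs and the other 5 is not a result. Without replicate 1 of rejuvenated old MSCs the same 6 genes were called in rejuvenated old against old MSCs. Of 12 stromal markers, all were above 3 reads in at least 1 library of young MSCs and 11 in old MSCs, where Thy1 was at most 3 reads. In young against old MSCs 5 of the 12 were higher and 7 lower. Nt5e held 254 to 326 in young and 12.9 to 23.1 in old MSCs, while Eng held 147 to 175 and 7008 to 7681 and Cxcl12 8970.3 to 9438 and 185514 to 207265 in the same order. Of 16 macrophage markers, 8 never exceeded 3 reads in young MSCs (Ptprc, Adgre1, Itgam, Tyrobp, C1qa, C1qb, Laptm5 and Cx3cr1), while all 16 were above that in old and rejuvenated old MSCs. Their summed level was 16267 to 20270.5 normalized counts in old MSCs, 16154 to 19662 in rejuvenated old MSCs and 962 to 1079 in the young cultures. Lyz2 alone held 8850 to 11494 in old and 153 to 187 in young MSCs. Of the 15 tested, 14 were lower and 1 higher in young against old MSCs. Aif1 had the higher mean in young MSCs, at 18.9 to 26.8 against 7.88 to 26.0 in old. Cd68 was above the floor in both, at 395 to 480 in young and 1073 to 1391 in old MSCs. The methods describe male donors, but no young culture exceeded 3 reads of the Y-linked genes Ddx3y, Uty, Kdm5d or Eif2s3y, while Ddx3y held 1591 to 1871 in old and 1486 to 1949.9 in rejuvenated old MSCs. Xist went the other way, with 21.2 to 41.2 in young, 1.97 to 14.4 in old and 4.83 to 10.3 in rejuvenated old MSCs. Donor age therefore cannot be told apart from these differences between the young cultures and the others, and in bulk RNA fewer cells of a type cannot be told apart from less RNA per cell.

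The promoter windows of the genes were searched for TCACGTG on both strands, which reads TCACGTG or CACGTGA in the printed sequence, in the 250 bases before and the 50 after each RefSeq start. Of the 10 genes, 15 windows were found and 2 held the motif, Fnip1 at 75 bases before the start and Rragc at 112 bases before it, against 3.77% of 32851 windows over all genes. The start used for the Fnip1 window lies downstream of 54438107, the first base of the gene as given below. The shorter CACGTG, which every match contains, was in 7.15% of all windows. The windows of both genes are shown with the match in capitals, followed by those of Flcn and Rragd, the members with the largest called falls after co-culture, in which these letters do not occur (GRCm38.p6, 5′ to 3′ along the gene, sequences from RefSeq).
Fnip1, chr11:54437929-54438228, + strand: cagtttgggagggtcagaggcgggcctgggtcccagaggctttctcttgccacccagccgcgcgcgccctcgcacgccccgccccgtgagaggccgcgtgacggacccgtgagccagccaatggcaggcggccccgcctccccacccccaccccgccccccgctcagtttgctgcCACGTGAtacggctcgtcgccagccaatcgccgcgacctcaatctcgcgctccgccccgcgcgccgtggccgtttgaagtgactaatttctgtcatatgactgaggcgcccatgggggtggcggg
Rragc, chr4:123917183-123917482, + strand: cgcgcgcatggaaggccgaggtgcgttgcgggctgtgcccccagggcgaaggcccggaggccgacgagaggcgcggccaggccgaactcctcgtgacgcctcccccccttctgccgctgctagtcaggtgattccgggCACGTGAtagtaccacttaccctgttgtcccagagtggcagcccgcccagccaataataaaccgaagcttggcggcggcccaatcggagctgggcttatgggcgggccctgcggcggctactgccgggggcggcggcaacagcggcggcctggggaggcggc
Flcn, chr11:59809990-59810289, - strand: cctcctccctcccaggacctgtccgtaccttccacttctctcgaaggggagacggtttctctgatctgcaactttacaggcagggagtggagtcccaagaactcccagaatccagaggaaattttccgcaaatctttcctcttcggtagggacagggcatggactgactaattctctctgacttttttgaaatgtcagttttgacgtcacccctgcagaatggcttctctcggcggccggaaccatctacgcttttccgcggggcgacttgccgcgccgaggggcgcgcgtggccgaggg
Rragd, chr4:32982748-32983047, + strand: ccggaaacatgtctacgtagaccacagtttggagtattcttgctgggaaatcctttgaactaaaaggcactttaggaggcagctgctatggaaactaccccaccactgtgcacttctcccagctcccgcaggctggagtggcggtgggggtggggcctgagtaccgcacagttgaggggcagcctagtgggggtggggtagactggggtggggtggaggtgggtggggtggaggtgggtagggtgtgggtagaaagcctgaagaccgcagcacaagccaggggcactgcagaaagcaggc
A match is a description of the letters and was not tested as a binding site.

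Among the transcription factors, Tfe3 was the only member called in rejuvenated old against old MSCs. Tfe3 encodes a broadly expressed partner and relative of TFEB and lies on chromosome X from 7762530 to 7775202 (GRCm38.p6, as for all positions here). Its normalized count in old MSCs was 2833 at the lowest, 2904 at the median and 3069 at the highest of 6 libraries, and in rejuvenated old MSCs 2587, 2682 and 2761 in the same order. All 6 rejuvenated old libraries were below all 6 old libraries, although the difference was small. The log2 fold change was -0.12 ± 0.028 (SE, adjusted p = 0.00102), a fall of 8.29% in the mean. In young MSCs it was 2967, 3087 and 3162, which overlapped the old libraries and lay above all rejuvenated old libraries. Young against old gave 0.069 ± 0.028 (SE, adjusted p = 0.0265), and this call was lost when young replicate 1, 3 or 5 or old replicate 2 or 6 was left out (adjusted p between 0.0510 and 0.0653 by limma). Rejuvenated old against young gave -0.19 ± 0.028 (SE, adjusted p = 1.08e-06). Tfe3 is X-linked, and the median gene of the X chromosome was 0.19 higher on the log2 scale in young than in old MSCs relative to the median autosomal gene. Among the autosomes that hold a member, the same value ran from -0.060 for chromosome 4 to 0.25 for chromosome 17. An offset of this size was therefore not particular to the X chromosome. Whether the donors of the groups differed in sex is not settled here. Any part of sex in the difference of Tfe3 between young and old MSCs was not tested.

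Tfeb, the factor that gives the family its name, was not called in any comparison. The gene is on chromosome 17 from 47737037 to 47792416. The counts were 271 at the lowest, 314 at the median and 353 at the highest in young MSCs, 282, 318 and 349 in old MSCs and 266, 299 and 314 in rejuvenated old MSCs. The 3 groups overlapped, with 2 rejuvenated old libraries below every old library. The log2 fold change was 0.0028 (SE 0.070, 95% confidence interval -0.14 to 0.15, adjusted p = 0.971) for young against old and -0.11 ± 0.070 (SE, adjusted p = 0.215) for rejuvenated old against old. The interval of the latter, -0.26 to 0.033, includes a fall as large as that of Tfe3. Rejuvenated old against young gave -0.12 ± 0.070 (SE, adjusted p = 0.130), and the call appeared with the same total per library (-0.21, adjusted p = 0.0108), with quantile normalization (-0.19, adjusted p = 0.0201) and without young replicate 6 (-0.16, adjusted p = 0.0337).

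Mitf, known for its roles in pigment cells, osteoclasts and mast cells, was higher in young MSCs and did not differ detectably after co-culture. Mitf spans chromosome 6 from 97807002 to 98021360. Young libraries held 1125 at the lowest, 1188 at the median and 1210.1 at the highest, old libraries 385, 415 and 477, and rejuvenated old libraries 373, 398 and 418. Every young library was above every other library, and old and rejuvenated old libraries overlapped. The mean of young MSCs was 2.82 times that of old MSCs, with a log2 fold change of 1.50 ± 0.050 (SE, adjusted p = 4.74e-18). Rejuvenated old against old gave -0.073 ± 0.050 (SE, adjusted p = 0.263), with a 95% confidence interval -0.18 to 0.031. Of 6 melanocyte markers, Tyr, Dct, Tyrp1 and Sox10 never exceeded 3 reads, and Pmel was lower in young MSCs (29.4 to 62.6) than in old MSCs (87.1 to 125). Of 10 osteoclast markers, Calcr and Dcstamp had at most 3 reads in every library, as did Acp5 in old and rejuvenated old MSCs. The 6 melanocyte markers summed to 45.3 to 84.9 in young, 100.0 to 140.5 in old and 100.1 to 146 in the rejuvenated cultures, and the 10 osteoclast markers to 1277 to 1359, 5151 to 5417 and 4426 to 5473. Most of the osteoclast sum in old MSCs was Ctsk, with 110.2 to 152 in young and 4269 to 4552 in old MSCs, whereas Mmp9 held 203 to 293 and 21.5 to 42.0, and of the 6 osteoclast markers tested 3 were higher and 2 lower in young against old MSCs. No part of these cells in the level of Mitf was tested. Mitf has 3 RefSeq promoters in the table used, and counts per gene do not separate the transcripts that start at them.

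Tfec, a family member known mainly from macrophages, was listed at 0 in all 6 young libraries. Its position is chromosome 6 from 16830927 to 16898464. Its count was 17.3 at the lowest, 24.8 at the median and 39.1 at the highest in old MSCs and 12.4, 20.9 and 24.5 in rejuvenated old MSCs, or 13 to 43 reads per library. Both groups were far above young MSCs and overlapped each other. Against a floor of 3 reads per library, the old mean was at least 8.25-fold higher than young and the rejuvenated old mean at least 6.38-fold higher. Rejuvenated old against old gave -0.34 ± 0.24 (SE, adjusted p = 0.259), with an interval from -0.83 to 0.14 that spans a fall larger than that of any other member, so a difference was not detectable at this depth. The macrophage markers Ptprc and Adgre1 were also at 0 reads in all young libraries and stood at 162 to 208 and 243 to 333 in old and 122 to 171 and 218 to 325 in rejuvenated old MSCs. Of the 15 macrophage markers tested, 14 were lower and 1 higher in young against old MSCs. In rejuvenated old against old MSCs, 1 of these markers rose and 1 fell. Their part in the level of Tfec was not tested.

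Relative to exon length, Tfe3 led the family in all groups, and Mitf took a larger share of it in young than in old MSCs. The 4 genes summed to 579 ± 13.9 normalized counts per kb of exon (SD, n = 6) in young MSCs, 444 ± 14.3 in old MSCs and 409 ± 9.12 in rejuvenated old MSCs. Tfe3 made up 57.3% ± 0.690 (SD, n = 6) of that sum in young MSCs, 71.2% ± 0.858 (SD, n = 6) in old MSCs and 70.8% ± 0.877 (SD, n = 6) in rejuvenated old MSCs. Mitf accounted for 33.0% ± 0.768 (SD, n = 6) in young MSCs, 15.2% ± 1.16 (SD, n = 6) in old MSCs and 15.7% ± 0.501 (SD, n = 6) in rejuvenated old MSCs. Shares of old and rejuvenated old MSCs overlapped for all 4 genes, and these shares are descriptions without a test.

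Flcn, which encodes folliculin, the protein that promotes GTP hydrolysis by RagC and RagD, had the smallest adjusted p of the 10 genes in rejuvenated old against old MSCs. Flcn spans chromosome 11 from 59791408 to 59810039. The count was 2467 at the lowest, 2655 at the median and 2781 at the highest in old MSCs and 1915, 2038 and 2081 in rejuvenated old MSCs. The rejuvenated old libraries lay below every old library and also below every young library, which held 2188, 2268 and 2432. Flcn fell by 23.0% in the mean of rejuvenated old against old MSCs, with a log2 fold change of -0.38 ± 0.035 (SE, adjusted p = 1.69e-08). Young against old gave -0.20 ± 0.035 (SE, adjusted p = 1.75e-05), and rejuvenated old against young -0.18 ± 0.035 (SE, adjusted p = 7.67e-05). Old MSCs thus had the highest level of Flcn, young MSCs the middle and rejuvenated old MSCs the lowest, and no pair of groups overlapped.

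Fnip1 and Fnip2 encode the folliculin-interacting proteins, which bind folliculin and are needed for its action on the Rag GTPases, and both transcripts were highest in young MSCs and lowest in rejuvenated old MSCs. Fnip1 lies on chromosome 11 from 54438107 to 54518241 and carries the motif shown in its promoter window. Its count was 1870.5 at the lowest, 1954 at the median and 2115 at the highest in young MSCs, 1558, 1607 and 1728 in old MSCs and 1274, 1376 and 1581 in rejuvenated old MSCs. Young libraries lay above all others, and 5 of 6 rejuvenated old libraries lay below every old library, with replicate 6 at 1581 inside the old range. The log2 fold change of Fnip1 was -0.22 ± 0.044 (SE, adjusted p = 3.50e-04) for rejuvenated old against old. It was 0.28 ± 0.044 (SE, adjusted p = 4.48e-06) for young against old, and -0.50 ± 0.044 (SE, adjusted p = 3.91e-10) for rejuvenated old against young. Fnip2 lies on chromosome 3 from 79455971 to 79568151. It held 770.2, 851 and 887 in young MSCs, 394, 472 and 518 in old MSCs and 351, 376 and 396 in rejuvenated old MSCs. The lowest old library, replicate 1 at 394, reached into the rejuvenated old range, and 4 of 6 rejuvenated old libraries lay below it. Fnip2 changed by -0.30 ± 0.056 (SE, adjusted p = 1.65e-04) in rejuvenated old against old, 0.86 ± 0.056 (SE, adjusted p = 1.14e-12) in young against old and -1.16 ± 0.056 (SE, adjusted p = 4.45e-15) in rejuvenated old against young MSCs. Per kb of exon, Fnip2 made up 26.8% ± 1.36 (SD, n = 6) of the Fnip1 and Fnip2 sum in young MSCs, 19.6% ± 1.41 (SD, n = 6) in old MSCs and 18.8% ± 1.27 (SD, n = 6) in rejuvenated old MSCs.

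**Figure D2:**
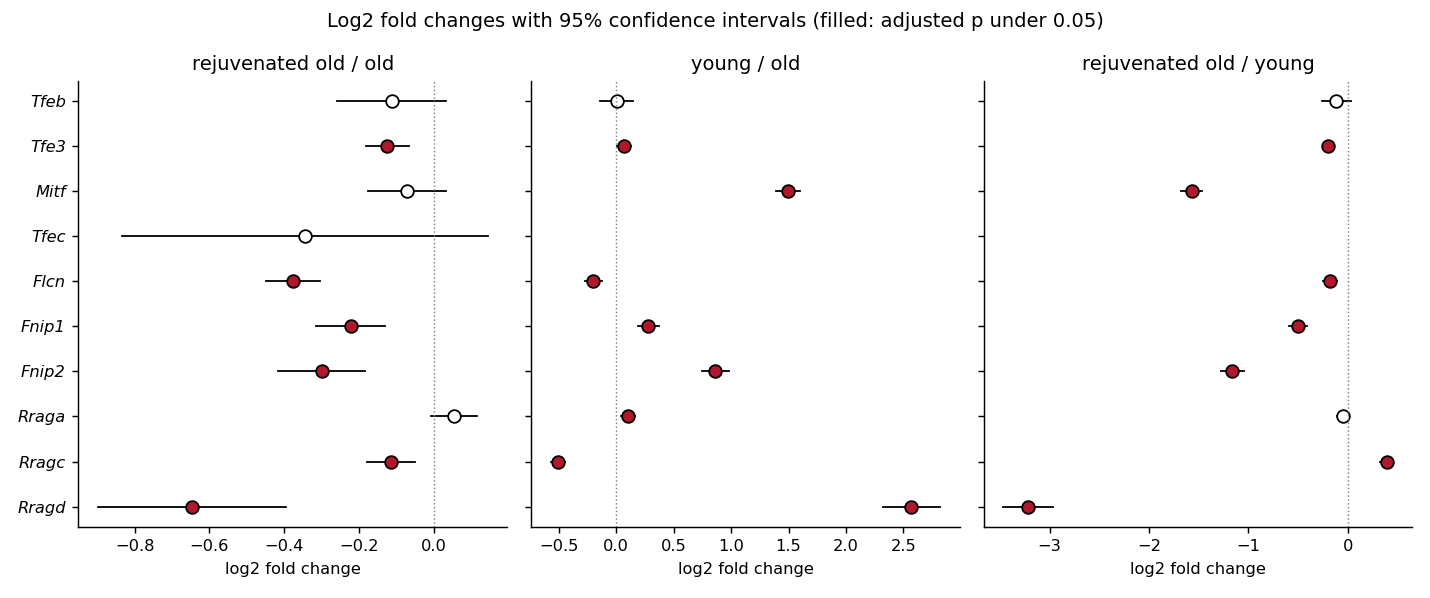
Log2 fold changes of the 10 genes with 95% confidence intervals from limma in the 3 comparisons, on an axis of its own for each, with filled points below an adjusted p of 0.05. The folliculin complex genes and Rragd lie left of 0 in rejuvenated old against old MSCs, while Mitf, Fnip2 and Rragd lie right of 0 in young against old, and Tfec is left out of the comparisons with young MSCs because it is listed at 0 there.

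The Rag GTPase genes differed from each other most clearly in Rragd, which encodes RagD, the partner known to link TFEB to mTORC1 on the lysosome and itself a described TFEB target. Rragd lies on chromosome 4 from 32982998 to 33022180. Young libraries held 235 at the lowest, 281 at the median and 313 at the highest, old libraries 40.1, 46.2 and 52.7, and rejuvenated old libraries 20.6, 31.2 and 34.0. No pair of groups overlapped, and the order was young, old, rejuvenated old. The mean of young MSCs was 6.05 times that of old MSCs, with a log2 fold change of 2.57 ± 0.12 (SE, adjusted p = 3.15e-15). Rejuvenated old against old gave -0.65 ± 0.12 (SE, adjusted p = 1.77e-04), a fall of 36.3% in the mean that rested on 20 to 36 reads per rejuvenated old library and 38 to 58 per old library. Replicate 1 of rejuvenated old MSCs, which held the most of the 87 young transcripts, had the lowest count of Rragd (20.6), and without it the log2 fold change was -0.55 (adjusted p = 3.41e-04). Against young MSCs, rejuvenated old MSCs gave -3.22 ± 0.12 (SE, adjusted p = 4.58e-17).

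Rragc, which encodes RagC, was by contrast lower in young than in old MSCs. It lies on chromosome 4 from 123917433 to 123936997 and carries the motif shown in its promoter window. The count was 2688 at the lowest, 2782 at the median and 2869 at the highest in young MSCs, 3794, 3927 and 4225 in old MSCs and 3432, 3656 and 3779 in rejuvenated old MSCs. Rejuvenated old libraries lay below every old library and above every young library. The log2 fold change was -0.51 ± 0.031 (SE, adjusted p = 3.63e-13) for young against old, -0.12 ± 0.031 (SE, adjusted p = 0.00451) for rejuvenated old against old and 0.39 ± 0.031 (SE, adjusted p = 4.34e-11) for rejuvenated old against young. Of the 31-base words of its transcripts, 7.92% also occur in other genes, most of them in the antisense gene 4930535I16Rik, and whether reads were counted by strand is not given in the sources used here. Per kb of exon, Rragd made up 6.05% ± 0.478 (SD, n = 6) of the Rragc and Rragd sum in young MSCs, 0.745% ± 0.0901 (SD, n = 6) in old MSCs and 0.516% ± 0.0999 (SD, n = 6) in rejuvenated old MSCs. RagC transcripts therefore outnumbered those of RagD in every library of every group.

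Rraga, which encodes RagA, was the member with the highest level per kb of exon and changed least between the groups among the Rag genes. Rraga is a short gene on chromosome 4 from 86575673 to 86577285. It held 3065 at the lowest, 3165 at the median and 3400.2 at the highest in young MSCs, 2815, 2956 and 3065 in old MSCs and 2935, 3087 and 3177 in rejuvenated old MSCs. The lowest young library barely exceeded the highest old library, and rejuvenated old libraries overlapped both other groups. Young against old gave 0.10 ± 0.030 (SE, adjusted p = 0.00256), a difference of 7.51% in the mean. Rejuvenated old against old gave 0.055 ± 0.030 (SE, adjusted p = 0.150), with 4 of 6 rejuvenated old libraries above every old library. Rejuvenated old against young gave -0.050 ± 0.030 (SE, adjusted p = 0.121), and passed the threshold with the same total per library (-0.14), the same 75th percentile (-0.081), quantile normalization (-0.080) and DESeq2 (-0.065).

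Rragb, which encodes RagB, the close relative of RagA, is not among the 10 genes but is given here because the 2 proteins fill the same place in the GTPase pair. It lies on chromosome X from 153137644 to 153190192. Its count was 132 at the lowest, 159 at the median and 192 at the highest in young MSCs, 0 to 3.23 in old MSCs and 0 to 10.3 in rejuvenated old MSCs. All old libraries had at most 3 reads, so the young mean was at least 53.1-fold higher than old against that floor. The highest rejuvenated old value was in replicate 1, the library that stood apart, and the next highest was 5.66 in replicate 6. Rragb meets the rule that chose the 87 genes by which replicate 1 stood apart, so its value there is not a separate observation. Per kb of exon, Rragb was 3.48% ± 0.492 (SD, n = 6) of the Rraga and Rragb sum in young MSCs, so Rraga supplied nearly all of it in every group. No 31-base word is shared between Rraga and Rragb, between Rragc and Rragd or between Fnip1 and Fnip2.

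**Figure D3:**
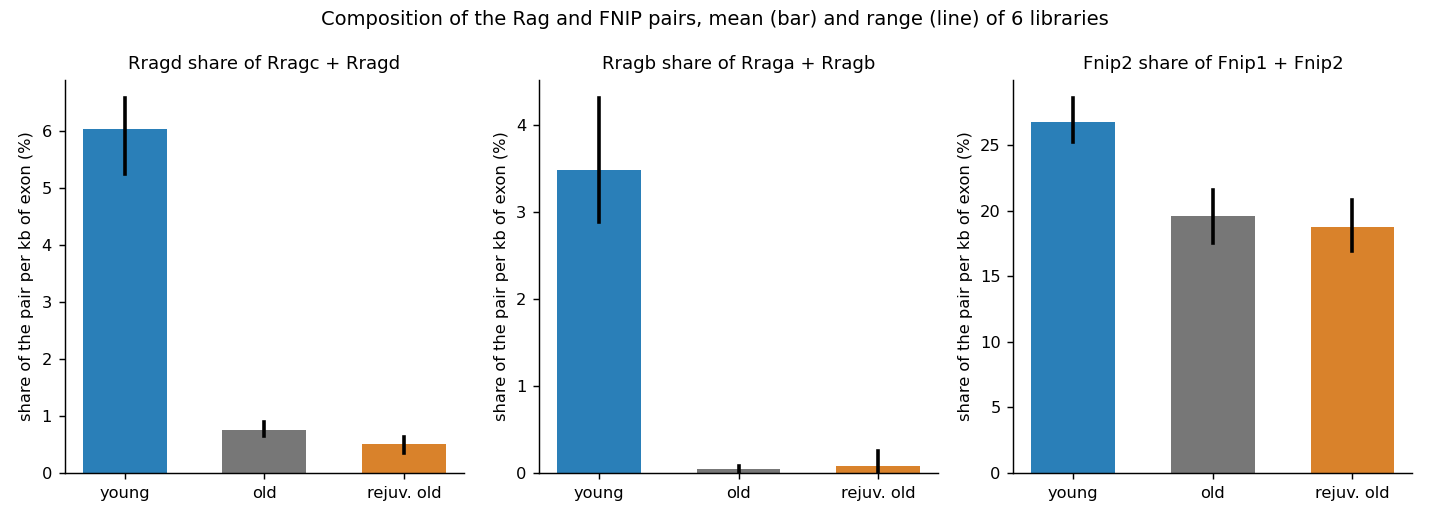
Share of Rragd, Rragb and Fnip2 in their pair, in percent of normalized counts per kb of exon, as the mean (bar) and the lowest and highest (line) of 6 libraries per group. All 3 shares were highest in young MSCs, where Rragd made up 6.05%, Rragb 3.48% and Fnip2 26.8%.

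Ordered by level per kb of exon, old MSCs ran from Rraga (1830.2) through Rragc (1181), Flcn (609), Tfe3 (316), Fnip1 (228), Mitf (67.7), Tfeb (55.9), Fnip2 (55.6) and Rragd (8.85) to Tfec (4.65), in mean normalized counts per kb. Only the ranges of Tfeb and Fnip2 overlapped between neighbours in that order. The order was the same in rejuvenated old MSCs, where Tfeb and Fnip2 (51.7 and 45.1) and Rragd and Tfec (5.64 and 3.60) overlapped. In young MSCs, Fnip2 (101) stood above Tfeb (56.1), and Rragd (53.5) reached the level of Tfeb, with overlapping ranges.

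**Figure D4:**
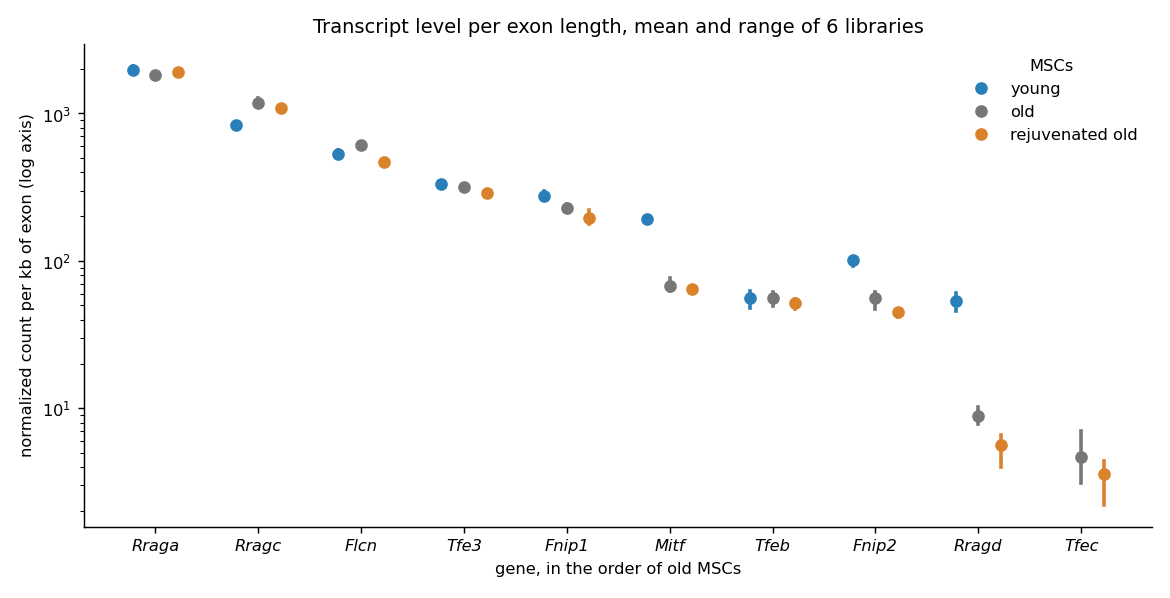
Mean normalized count per kb of exon (points, log axis) and the lowest and highest of 6 libraries (lines) for each gene and group, in the order of old MSCs. Rraga was the highest in all groups, Mitf, Fnip2 and Rragd stood higher in young MSCs, and Tfec has no young point because it is listed at 0.

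The co-culture change and the difference between young and old MSCs share the 6 old libraries, so their values are only set side by side. In young against old MSCs 9 of the 10 genes were called, 6 higher (Tfe3, Mitf, Fnip1, Fnip2, Rraga and Rragd) and 3 lower (Tfec, Flcn and Rragc), and 85.7% of all genes tested were called, 41.6% higher and 44.1% lower. The count of 9 lies close to that background. Flcn and Rragc were lower in both young and rejuvenated old MSCs than in old MSCs, at -0.20 and -0.38 on the log2 scale for Flcn and at -0.51 and -0.12 for Rragc. Tfe3, Fnip1, Fnip2 and Rragd were higher in young and lower in rejuvenated old MSCs than in old MSCs, with Rragd at 2.57 and -0.65. In rejuvenated old against young MSCs 8 genes were called, 6 lower (Tfe3, Mitf, Flcn, Fnip1, Fnip2 and Rragd) and 2 higher (Tfec and Rragc), where 85.6% of all genes tested were called, 41.5% lower and 44.1% higher.

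The other genes of the pathway were taken from lists written by hand, and 84 genes outside the 10 were tested. In rejuvenated old against old MSCs, 42 of them were lower and 14 higher, or 66.7% in all, with a median log2 fold change of -0.095. Of all genes tested, 41.6% were called there, 20.6% lower and 21% higher, so the 16.7% of the 84 that were higher lay below that background. Among the 42 lower genes, 24 were in the list of CLEAR targets given below. That list was written when lower lysosomal transcripts in these libraries were already known, so the pooled count is not independent evidence of its direction. In young against old MSCs, 40 were lower and 31 higher, and in rejuvenated old against young MSCs 39 were lower and 30 higher. These are 84.5% and 82.1% of the 84, no more than the 85.7% and 85.6% of all genes tested, and are not a result about the pathway. Of 10 genes of the Ragulator scaffold and the KICSTOR complex, which hold the Rag GTPases and their regulators on the lysosome, 3 were lower and 1 higher after co-culture. Lamtor4, Lamtor1 and Lamtor3 were lower with log2 fold changes of -0.18 ± 0.060 (SE, adjusted p = 0.0189), -0.15 ± 0.046 (SE, adjusted p = 0.0135) and -0.10 ± 0.034 (SE, adjusted p = 0.0228), and Lamtor2 was higher (log2 fold change 0.25, SE 0.065, adjusted p = 0.00338). Of 8 genes of the GATOR complexes, which act on the GTP state of RagA and RagB, 1 was lower and 3 were higher. Mios, a GATOR2 subunit, showed the largest rise of the 84 genes, with 734 to 868 normalized counts in old and 1009 to 1203 in rejuvenated old MSCs and no overlap (log2 fold change 0.54, SE 0.046, adjusted p = 4.36e-09). Nprl2 and Seh1l were higher by 0.12 ± 0.048 (SE, adjusted p = 0.0469) and 0.10 ± 0.037 (SE, adjusted p = 0.0362), and Nprl3, a GATOR1 subunit, was lower (log2 fold change -0.22, SE 0.035, adjusted p = 2.53e-05).

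Of 6 genes that sense amino acids or S-adenosylmethionine, 4 were lower and 1 higher in rejuvenated old against old MSCs. Over all genes tested, 20.6% were lower and 21% higher there, and the short lists of this paragraph were not tested as sets. The 3 sestrin genes were lower, with log2 fold changes of -0.39 ± 0.072 (SE, adjusted p = 1.67e-04) for Sesn3, -0.28 ± 0.051 (SE, adjusted p = 1.22e-04) for Sesn1 and -0.18 ± 0.048 (SE, adjusted p = 0.00367) for Sesn2. Lars, the leucyl-tRNA synthetase, was higher (log2 fold change 0.23, SE 0.044, adjusted p = 1.74e-04). Of 10 genes of mTORC1 and the TSC complex, 5 were lower and 1 higher. Deptor, an mTOR-binding inhibitor, was lower (log2 fold change -0.45, SE 0.14, adjusted p = 0.0116), as were Mlst8, an mTOR subunit (log2 fold change -0.34, SE 0.063, adjusted p = 1.65e-04), and Tsc1 (log2 fold change -0.18, SE 0.044, adjusted p = 0.00205). Rheb, the GTPase that activates mTORC1, was higher, with 2632 to 2917 in old and 3035 to 3318 in rejuvenated old MSCs (log2 fold change 0.20, SE 0.033, adjusted p = 5.08e-05). Of 17 genes that act on TFEB or are closely related to the Rag genes, 6 were lower and 5 higher. Ppp3ca, a catalytic subunit of calcineurin, the phosphatase that frees TFEB, was lower with no overlap (log2 fold change -0.37, SE 0.036, adjusted p = 2.76e-08), while Ppp3cb, the gene of another catalytic subunit, was higher (log2 fold change 0.19, SE 0.036, adjusted p = 1.94e-04). Mcoln1, the lysosomal calcium channel upstream of calcineurin, was lower, with 2018 to 2252 in old and 1602 to 1735 in rejuvenated old MSCs (log2 fold change -0.34, SE 0.032, adjusted p = 2.24e-08). Gsk3b, a kinase of TFEB, was lower (log2 fold change -0.18, SE 0.030, adjusted p = 7.48e-05), and the kinase Map4k3 and the phosphoprotein adaptor Ywhah were higher by 0.24 ± 0.048 (SE, adjusted p = 3.90e-04) and 0.24 ± 0.062 (SE, adjusted p = 0.00346).

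Of 34 genes described as CLEAR targets of the TFEB family, 24 were lower and 3 higher in rejuvenated old against old MSCs, with a median log2 fold change of -0.27. That is 70.6% of the list lower, against 20.6% of all genes tested. The list was written when lower lysosomal transcripts in these libraries were already known, so it is not independent evidence of its direction. Gpnmb, a glycoprotein gene induced by MITF family factors, showed the largest fall of the list, with 2482, 2642 and 3006 at the lowest, median and highest library in old and 1602, 1688 and 1961 in rejuvenated old MSCs (log2 fold change -0.63, SE 0.052, adjusted p = 2.33e-09). Ctsb, which encodes cathepsin B, held 46321 to 50373 in old and 30293 to 34101 in rejuvenated old MSCs (log2 fold change -0.59, SE 0.036, adjusted p = 1.91e-11). Sgsh, an enzyme of heparan sulfate breakdown, held 792 to 911 in old and 521 to 643 in rejuvenated old MSCs (log2 fold change -0.54, SE 0.067, adjusted p = 1.04e-06). None of these 3 genes overlapped between the groups. The rises were in Naglu, another enzyme of heparan sulfate breakdown (log2 fold change 0.28, SE 0.029, adjusted p = 8.35e-08), Wipi1, which acts in autophagosome formation (log2 fold change 0.24, SE 0.035, adjusted p = 1.01e-05), and Ctsf, the gene of cathepsin F (log2 fold change 0.12, SE 0.046, adjusted p = 0.0357). In young against old MSCs, 16 of the 34 were lower and 12 higher, with a median of 0.0047, and in rejuvenated old against young MSCs 18 were lower and 8 higher. These are 82.4% and 76.5% of the list, no more than the 85.7% and 85.6% of all genes tested, so the number called is not a result about the list. In rejuvenated old against young MSCs 52.9% of the list were lower and 23.5% higher, against 41.5% and 44.1% of all genes tested. Of 27 CLEAR genes with a promoter window, 13 held TCACGTG, and 9 of these were lower and 1 higher after co-culture, against 11 lower and 2 higher of the 14 without it. Over all genes tested that had a window, 31.3% of 748 with the motif were lower and 14.8% higher, against 20.4% and 21.5% of 10203 without it. Their median log2 fold changes were -0.047 and 0.0090. In young against old MSCs 43.6% with the motif were lower and 42.0% higher, against 45.1% and 41.0% without it. The split was not tested, and genes with and without the motif were not matched for level.

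**Figure D5:**
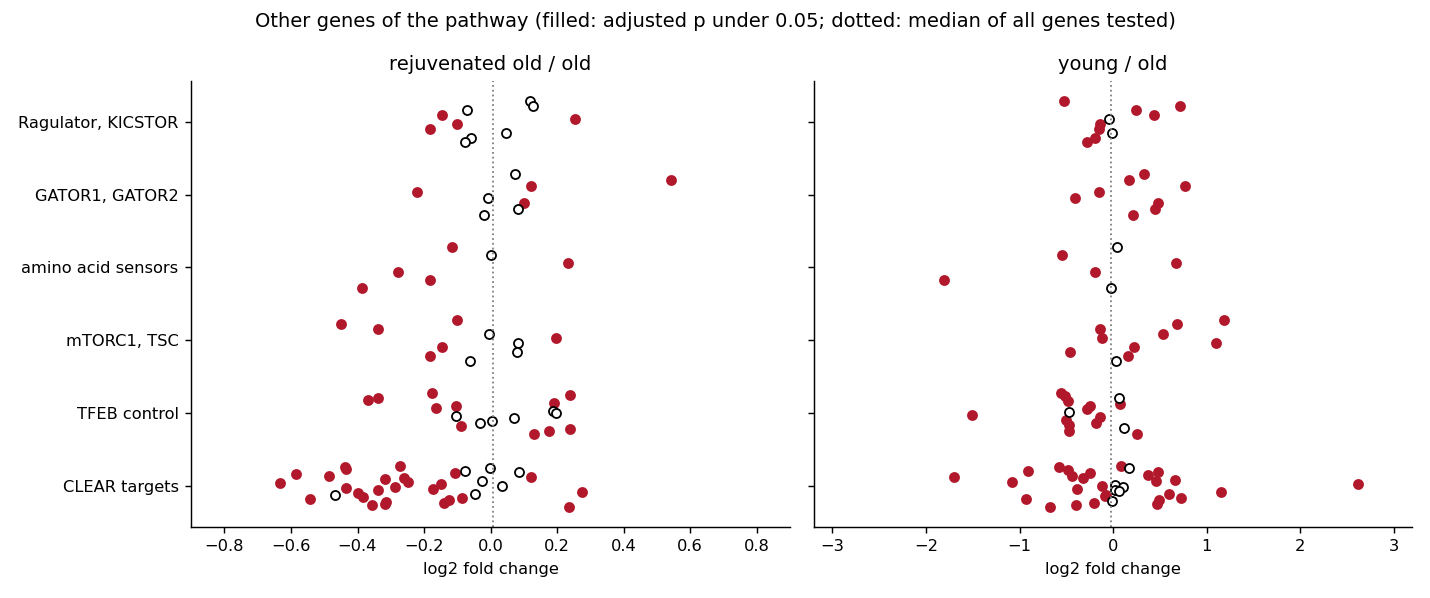
Log2 fold changes of the pathway genes in rejuvenated old against old (left) and young against old MSCs (right), a point per gene and a row per list, filled below an adjusted p of 0.05, with the median of all genes tested as a dotted line. In the left panel 24 of 34 CLEAR targets are called left of 0, and in the right panel 16 are, with Rragb and Ppargc1a beyond the axis. Of all genes tested, 20.6% and 44.1% were called lower in the same order.

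The genes whose pattern over the 18 libraries was most like that of Rragd and Flcn were found by the root mean squared difference of log2 values centred on each gene's mean. For Rragd these were Tbx3 (root mean squared difference 0.21), Gpnmb (root mean squared difference 0.22) and Stard10 (root mean squared difference 0.22), against a spread of Rragd itself of 1.40. Gpnmb had means of 16696 in young MSCs, 2719 in old MSCs and 1753 in rejuvenated old MSCs, and Tbx3 834, 152 and 102 in the same order. For Flcn they were Tom1l2 (root mean squared difference 0.0495), Pbxip1 (root mean squared difference 0.0705) and Atg2a (root mean squared difference 0.0706), against a spread of 0.16. Tom1l2, which like Flcn lies on chromosome 11, had means of 2552 in young MSCs, 2991 in old MSCs and 2348 in rejuvenated old MSCs. All of these genes share the same libraries and depth, and the likeness is a description.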

How the data were processed

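RNA of 18 cultures was sequenced from stranded mRNA libraries, with 6 libraries per group (young, old and rejuvenated old). The deposited values are a signal, gene counts that the authors normalized with DESeq2 after alignment to mm10 with HISAT2 and counting with StringTie and featureCounts on Galaxy. Versions, the annotation and the strand setting are not given in the sources used here. All values were whole multiples of a step per library within 0.01 reads, so the authors' reads were recovered (22936251 to 29559194 per library). Every column was mapped to a labelled sample, and 0 were left unmapped.

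The test was limma 3.58.1 (R 4.3.3) with an intensity trend on log2(value + 1) of 14353 genes whose mean was 10 or more, all 3 groups in the same fit, Benjamini-Hochberg adjusted over all genes, and called below 0.05. Fold changes are on that scale, which understates changes of low genes. edgeR 4.0.16 and DESeq2 1.42.0 were run on the recovered reads as alternatives. Other alternatives were pseudocounts of 0.5 and 10, no filter or a mean of at least 50, equal totals, 75th percentiles, quantile normalization, 2 groups per fit, no trend, a replicate block, a threshold of 0.01 and leaving out each library. On simulated counts with a fixed spread, the scripts recovered most of the changes put in. Those changes were larger than the falls of Tfe3, Flcn, Fnip1, Fnip2 and Rragc after co-culture. Recovery of falls as small as these was not tested. Levels per kb use the exon union of GENCODE models, and promoter windows and positions are from RefSeq and GENCODE on GRCm38.p6.

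The 10 genes, the pathway lists and the tests were chosen with earlier results of these data known. The genes named are all 10 members, up to 3 called genes per list and direction by size in rejuvenated old against old MSCs, and the 3 genes most like each of the 2 members with the largest called change. Rragb and marker genes are named beside results they touch, and Tfec folds against young use a floor of 3 reads per library, which like all counting limits covers counting error only. A protein sequence table was not used here.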

Additional observations from a re-analysis of the deposited data

Results flagged for a closer look

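In 29 sets of 6 libraries with any spread (a gene in a group), 3 single libraries stood far from the other 5 of their group by Dixon's test, and chance marks about 1 in 20 such sets. Rejuvenated old replicate 4 had the lowest Flcn, 1915 normalized counts against 2020.0 to 2081 in the other 5, which is the direction of the group difference. Young replicate 3 had the highest Rraga, 3400.2 against 3065 to 3175. Old replicate 2 had the highest Rragc, 4225 against 3794 to 3955. Leaving out each of these libraries left the calls of Flcn, Rraga and Rragc between their groups and old MSCs in place.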

How the results depend on the processing

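In rejuvenated old against old MSCs, 6 of the 10 genes were called under each of the 31 alternatives, all lower. In young against old MSCs the count of 9 became 8 with a mean of at least 50, where Tfec was not tested, with a threshold of 0.01 and without some single libraries (range 8 to 9). In rejuvenated old against young MSCs the count of 8 ranged from 7 to 10 over the alternatives and from 8 to 9 without single libraries. For Tfeb in young against old MSCs, near 0, leaving out single libraries gave log2 fold changes from -0.030 to 0.048, so its direction is not set. Replicate numbers did not pair the cultures (correlations of same-numbered deviations from -0.15 to 0.074, own number best in 1 of 6 for rejuvenated old against old), and with a replicate block the counts stayed at 6, 9 and 8 of the members and went from 56, 71 and 69 to 54, 70 and 70 of the pathway genes. The 84 pathway genes gave 43 to 56 calls in rejuvenated old against old MSCs. Counts below about 30 reads, as for Tfec and Rragd, limit what their fold changes can show.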
